A study of Homo sapiens with 13 samples.

Results

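The 52 genes described here are a part of the TGF-beta and BMP signaling pathway. They were measured in hFOB 1.19 cells, an immortalized line of human fetal osteoblasts, the cells that form bone. The genes were chosen by gene symbol (ligands, receptors, extracellular antagonists and binding proteins, SMAD proteins, intracellular inhibitors and target genes). The rule used no measured value, but the list was drawn up with earlier results of these data known. All 52 were found among the 43836 genes of the count table, and 51 passed the filter on low counts that left 17092 genes for testing. The exception was BMP7, a bone morphogenetic protein with 8 reads in all libraries together. Messenger RNA was sequenced from 5 groups of the same line. Positive controls (PC) were grown with 10% fetal bovine serum (FBS) and negative controls (NC) without it, both with DMSO as the vehicle. The other groups were serum-starved like NC and given 1 µg/mL of a compound, namely resveratrol (RES), peonidin-3-O-glucoside (POG, an anthocyanin) or DEG. The labels did not spell out DEG, while their treatment protocol listed a delphinidin glucoside beside the other compounds. There were 2 PC, 2 NC, 3 RES, 3 POG and 2 DEG libraries, and the labels did not say whether libraries of a group came from separate cultures. The p-values thus measured only the spread within groups, pooled over all 12 libraries, which may be technical. All groups rest on 1 immortalized line.

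TGF-beta family ligands are secreted proteins that bring type I and type II receptors together at the cell surface. TGF-beta and activin receptors phosphorylate SMAD2 and SMAD3, BMP receptors phosphorylate SMAD1, SMAD5 and SMAD9, and both kinds of SMAD enter the nucleus with SMAD4, while SMAD6 and SMAD7 inhibit the signal. In bone, BMPs drive osteoblast differentiation, TGF-beta is stored in the matrix bound to latent TGF-beta binding proteins (LTBPs), and the ID genes and TGFBI are well known response genes.

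Between 38464619 and 51416358 reads were counted per library. Of 9 osteoblast markers 7 passed the filter. The list summed to between 4751 and 5523 CPM (read counts scaled to a common library size, with TMM factors) in all 12 libraries. By group this was 5462 to 5523 CPM in PC, 5263 to 5321 in NC, 4908 to 5035 in RES, 4751 to 4786 in POG and 4763 to 4770 in DEG. Most of this was COL1A1, COL1A2 and SPARC. In the tests below COL1A2 was called lower than NC with each compound and COL1A1 with POG and DEG. SPARC had 1040 and 1052 CPM in NC, 1019 to 1025 in RES, 1056 to 1065 in POG and 1098 and 1114 in DEG. The part of this shift in the results was not tested. RUNX2 had 44.3 to 51.6 CPM, ALPL 3.22 to 6.66 CPM, SPP1 0.955 to 2.34 CPM and BGLAP 0.425 to 2.00 CPM. SP7 (osterix, a transcription factor of osteoblast differentiation) and IBSP (bone sialoprotein) fell below the filter. Of 14 markers of other cell types, 10 passed the filter and 12 averaged under 1 CPM. The list summed to 14.7 to 20.5 CPM per library, most of it CTSK. The PC pair was the least alike: over the 38 pathway genes of at least 10 CPM, its libraries differed by a median of 0.090 on the log2 scale, against 0.028 for NC, 0.025 to 0.043 for pairs of RES, 0.024 to 0.031 for pairs of POG and 0.020 for DEG. Because the tests pooled the spread over all 12 libraries, the tests of PC did not use its wider spread by itself.

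The levels of the pathway genes without serum were compared per exon length as TPM, here in the NC libraries. TPM are counts divided by the joined length of all annotated exons of a gene and scaled to a common total. Among the 9 ligand genes, TGFB1 had 511 ± 6.59 TPM (SD, n = 2) and INHBA, the activin A subunit, 329 ± 1.58 TPM. BMP4 had 19.6 and 20.4 TPM in its libraries and TGFB2 15.8 ± 0.431 TPM, whereas BMP6, TGFB3, INHBB and BMP2 lay between 2.29 and 0.227 TPM and BMP7 had no read in NC. Among these 9 genes the ligand RNA was thus mostly that of TGFB1 and INHBA. Outside the member list, the family ligand GDF15 had 365 and 380 CPM in NC, where TGFB1 had 401 and 393 CPM. Of the 12 receptors and co-receptors, the TGF-beta co-receptor ENG (endoglin) was highest at 287 ± 0.281 TPM. TGFBR2, the type II TGF-beta receptor, had 93.4 TPM, the type II BMP receptor BMPR2 51.6 TPM and the type I receptor TGFBR1 44.9 TPM. The activin and BMP receptors ACVR1B, ACVR1 and BMPR1A and the co-receptor TGFBR3 (betaglycan) lay between 36.0 and 18.7 TPM, with BMPR1B, ACVR2B and ACVR2A between 8.14 and 5.11 TPM. ACVRL1, the ALK1 receptor best known in endothelium, was the lowest receptor at 1.30 ± 0.0891 TPM.

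Extracellular antagonists and binding proteins held some of the highest levels. FSTL1, a secreted follistatin-like protein, had 734 ± 19.6 TPM, the BMP antagonist GREM1 354 ± 3.03 TPM and the activin antagonist FSTL3 325 ± 1.39 TPM. LTBP4, LTBP1, LTBP2 and LTBP3 had 244, 159, 112 and 68.3 TPM, the proteinase BMP1, which cleaves procollagen and chordin, 173 TPM, and the activin antagonist FST 85.1 TPM. NOG (noggin), CHRDL1 and CHRD (chordin), which bind BMPs, had 6.92, 1.24 and 0.984 TPM. Among SMADs, SMAD5 had 51.0 ± 1.53 TPM and SMAD3 49.4 ± 0.809 TPM, with libraries that met at 49.9 TPM, and SMAD7, SMAD4, SMAD1, SMAD2, SMAD6 and SMAD9 followed from 32.2 to 5.18 TPM. This order depends on the joined exon length, which was 36426 bases for SMAD2 and 19606 bases for SMAD4. By CPM in NC, SMAD2 had 91.9 and SMAD4 85.0, above SMAD7 with 30.2 and SMAD1 with 24.4. The inhibitors SKI, SMURF2, SMURF1, SKIL, PMEPA1 and BAMBI ranged from 190 down to 9.39 TPM. Of the target genes, TGFBI had 306 TPM and ID3 104 TPM, with ID1, ID2 and ID4 at 33.4, 7.66 and 0.842 TPM.

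**Figure D1:**
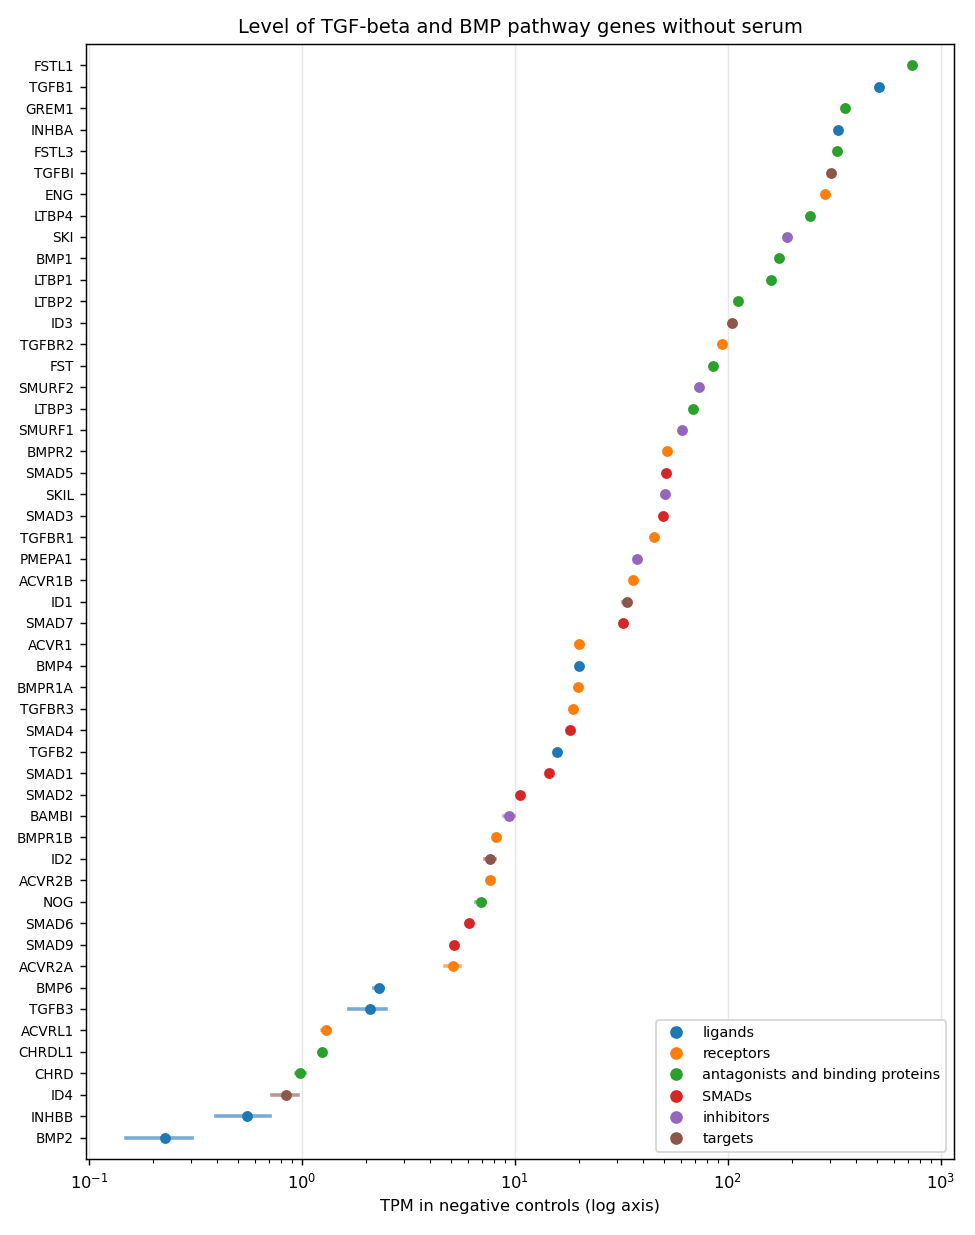
Level of each pathway gene in the 2 NC libraries in TPM on a log axis, ordered by level; points are means, horizontal lines run from the lower to the higher library and colors give the role. FSTL1 (734 TPM) and TGFB1 (511 TPM) lead, BMP2 (0.227 TPM) is lowest, and BMP7, at 0 TPM, is not drawn.

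The promoters of 4 members whose expression differed between groups are printed so that SMAD-binding letters can be read beside the values. They were not picked by size of change alone, as members such as SMAD3 and LTBP3 rose more with serum than SMAD6. A motif and a change in the same gene are therefore not independent finds here. SMAD6, ID1 and ID3 rose with serum, and TGFB2 was the called member ligand with the largest difference between compounds. Sequences are the 250 bases before the RefSeq transcript start on GRCh38.p14, 5′ to 3′ on the strand of the gene, at chr15:66701986-66702235 (plus strand), chr20:31605039-31605288 (plus), chr1:23559502-23559751 (minus) and chr1:218345086-218345335 (plus). Capitals mark matches to GTCTAGAC, a palindrome to which SMAD3 and SMAD4 bind, to CAGAC or its reverse complement GTCTG, and to the GC-rich SMAD site GGCGCC.
SMAD6 promoter: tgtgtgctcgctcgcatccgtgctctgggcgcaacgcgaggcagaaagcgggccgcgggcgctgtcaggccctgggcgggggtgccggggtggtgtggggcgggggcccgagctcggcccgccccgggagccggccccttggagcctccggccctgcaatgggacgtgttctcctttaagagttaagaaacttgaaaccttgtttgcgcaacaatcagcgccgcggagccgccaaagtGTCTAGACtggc
ID1 promoter: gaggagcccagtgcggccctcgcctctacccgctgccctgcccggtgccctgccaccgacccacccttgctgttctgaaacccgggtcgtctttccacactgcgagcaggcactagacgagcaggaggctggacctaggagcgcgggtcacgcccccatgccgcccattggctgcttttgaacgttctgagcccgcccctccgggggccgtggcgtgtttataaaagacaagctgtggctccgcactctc
ID3 promoter: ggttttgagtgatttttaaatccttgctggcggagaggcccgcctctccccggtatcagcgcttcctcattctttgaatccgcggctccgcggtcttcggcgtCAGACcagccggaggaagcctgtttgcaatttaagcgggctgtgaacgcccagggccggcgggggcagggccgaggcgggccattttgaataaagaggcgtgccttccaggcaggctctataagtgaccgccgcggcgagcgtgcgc
TGFB2 promoter: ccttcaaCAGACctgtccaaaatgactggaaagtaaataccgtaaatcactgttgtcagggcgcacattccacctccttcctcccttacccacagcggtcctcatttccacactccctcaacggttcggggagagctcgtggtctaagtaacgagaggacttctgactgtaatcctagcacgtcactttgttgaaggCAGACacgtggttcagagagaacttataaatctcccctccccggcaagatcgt
The palindrome stood in the SMAD6 promoter, 12 bases before the start, and in 64 of 35116 promoter windows of this length (0.182%); among 81 windows of the 46 matched members it was in SMAD6 alone. CAGAC or GTCTG was in 30 of the 81 member windows (37.0%) and in 38.0% of all windows, the ID3 window holding it once and the TGFB2 window in 2 places. GGCGCC was in 22 of the 81 (27.2%) and in 16.4% of all windows. None of these letters was in the ID1 window, which says nothing of SMAD binding to that gene elsewhere.

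Growth with serum was compared with serum starvation first. SMAD3, the ID genes ID1 and ID3, the matrix protein TGFBI and the binding protein LTBP3 were higher with serum by 1.74- to 2.28-fold, while the BMP antagonist NOG and the ligands BMP4 and BMP6 were lower. With edgeR's exact test and a Benjamini-Hochberg false discovery rate (FDR) under 0.05 over all 17092 genes, 35 of the 51 tested members (68.6%) were called, against 42.4% of all genes tested. Of these, 15 were higher (21.4% of all genes were) and 20 lower (20.9% of all genes). The tested members had a median level of 45.2 CPM over libraries against 17.5 CPM for all tested genes, and the part of level in the count was not tested. The median log2 fold change was -0.08 over the members and -0.01 over all genes. Genes whose libraries are said below not to overlap between groups had mostly been picked by their FDR. Such a statement describes the values and is not a further test, and the share over all genes is not given. Levels are shares of the RNA of a whole culture, so that fewer cells of a type and less RNA per cell cannot be told apart.

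**Figure D2:**
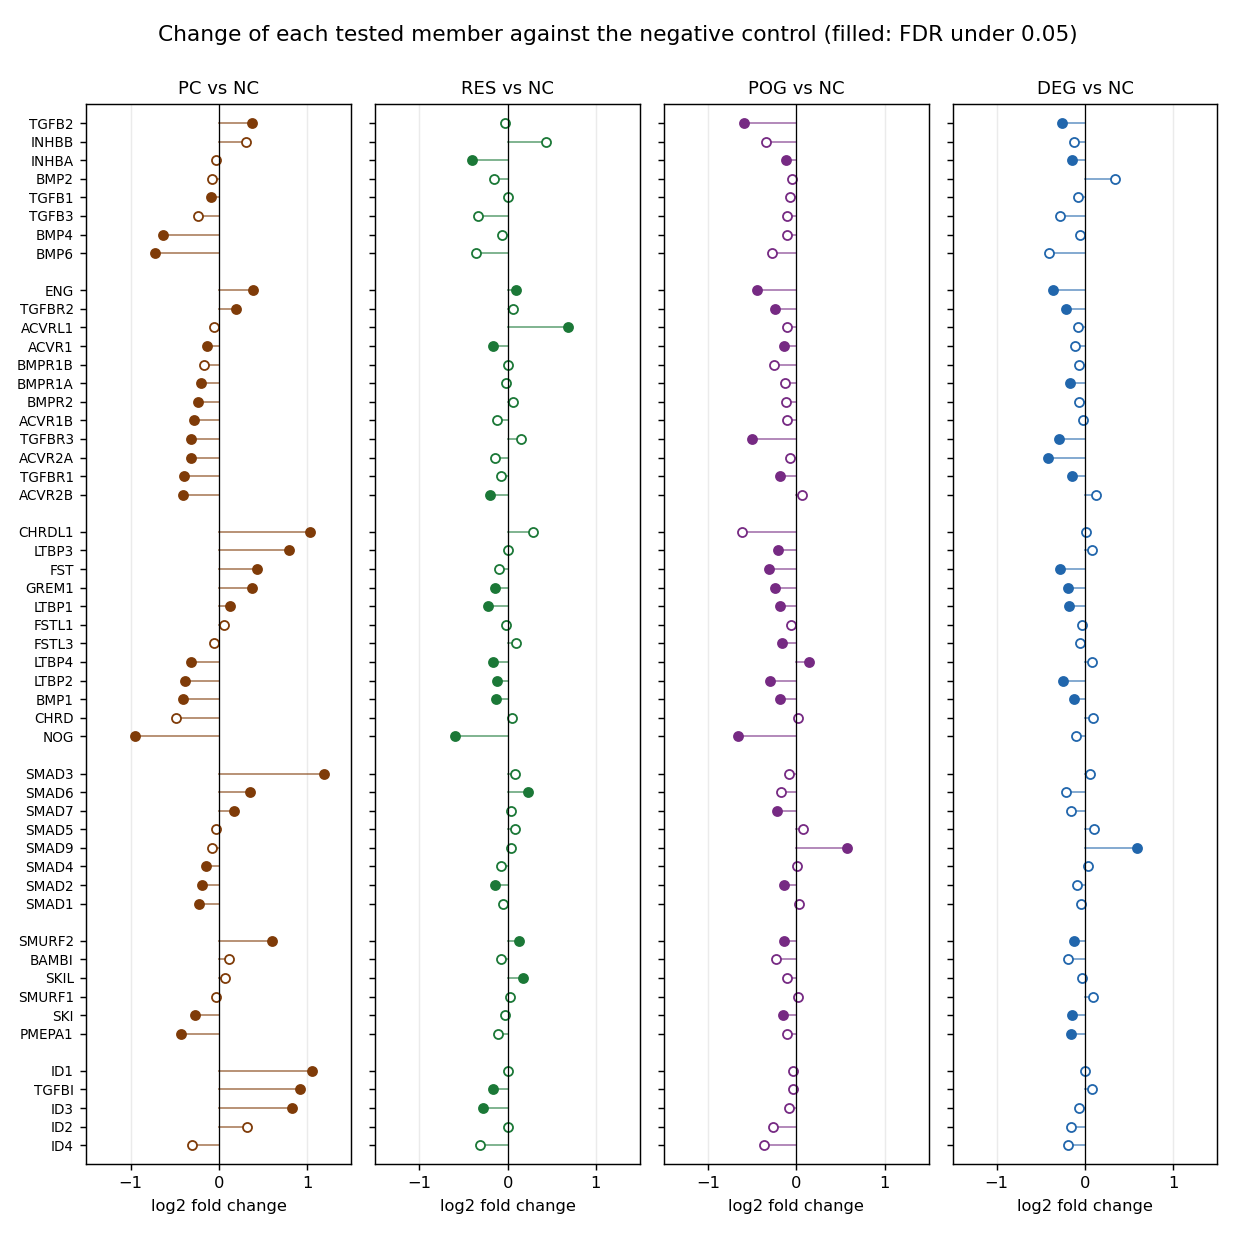
log2 fold change against NC of the 51 tested members (x axis, 1 panel per group), in blocks by role and ordered by the PC change within a block; filled points passed FDR under 0.05. With PC 35 points are filled, with RES 17, with POG 21 and with DEG 17; the 4 panels share the NC libraries.

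Of the 8 tested ligand genes, 1 rose and 3 fell with serum. TGFB2 had 28.4 and 31.1 CPM in PC and 22.4 and 23.2 CPM in NC, a log2 fold change of 0.38 ± 0.0666 (SE, FDR 1.27e-07) with both PC libraries above both NC libraries. Reads of TGFB2 are uncertain to the extent that 22.7% of its exon bases are shared with the transcript TGFB2-OT1. BMP4, a BMP of the osteoblast lineage, had 10.1 and 8.94 CPM against 14.4 and 15.0 CPM (-0.63 ± 0.0866, FDR 7.34e-12), again without overlap. BMP6 had 1.54 and 0.948 CPM against 2.17 and 1.96 CPM (-0.72 ± 0.249, FDR 0.00944). That call was lost without PC replicate 2 (FDR 0.260) or NC replicate 1 (FDR 0.0924). TGFB1 fell by 0.09 on the log2 scale (384 and 361 CPM against 401 and 393 CPM, FDR 0.0379), a call lost without PC replicate 2 or either NC library (FDR 0.0953 to 0.288). INHBA overlapped between the groups, with 614 and 655 CPM in PC and 648 and 649 CPM in NC (-0.03, FDR 0.526). BMP2 was at 0.283 and 0.0711 CPM against 0.258 and 0.126 CPM, too few reads for a direction (95% interval -1.72 to 1.59). TGFB3 and INHBB did not pass the test either (FDR 0.417 and 0.731).

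Of the 12 receptors and co-receptors, 2 rose and 8 fell. ENG had 352 and 333 CPM with serum and 263 and 261 CPM without (0.39 ± 0.0326, FDR 8.28e-24), and TGFBR2 had 172 and 178 CPM against 151 and 154 CPM (0.20, FDR 4.89e-06). The type I receptor TGFBR1 went the other way, from 85.1 and 85.8 CPM without serum to 62.3 and 67.7 CPM with it (-0.40 ± 0.0448, FDR 1.27e-15). The libraries of the 2 groups did not overlap for any of these genes. Of the 14 markers of other cell types 10 were tested and 3 called, where 42.4% of all genes were called. All 3 were lower with serum: PECAM1 with 1.56 and 1.59 CPM against 2.25 and 2.34 CPM (FDR 0.0321), COL2A1 with 0.182 and 0.332 CPM against 0.775 and 1.23 CPM (FDR 2.86e-06) and CTSK with 9.29 and 8.80 CPM against 10.3 and 10.8 CPM (FDR 0.0414). The list summed to 14.7 to 15.0 CPM in PC and 16.5 to 17.7 CPM in NC, and its part in the result was not tested. ACVR2B, a type II activin receptor, had 19.6 and 23.3 CPM against 28.7 and 28.3 CPM (-0.41 ± 0.0719, FDR 1.16e-07). The falls of ACVR1B, BMPR2, BMPR1A, TGFBR3, ACVR2A and ACVR1 lay between -0.32 and -0.13. For BMPR1A, ACVR2A and ACVR1 the call was lost without NC replicate 2 (FDR 0.0624, 0.380 and 0.372). It was also lost without PC replicate 1 for these genes (FDR 0.0553, 0.592 and 0.0578) and for TGFBR3 (FDR 0.0562), and without PC replicate 2 for ACVR1 (FDR 0.138). BMPR1B and ACVRL1 were not called.

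Extracellular antagonists and binding proteins were split, with 5 higher, 4 lower and 3 not called. CHRDL1, a BMP antagonist, had 2.73 and 1.99 CPM in PC and 1.19 and 1.13 CPM in NC (1.03 ± 0.286, FDR 0.00108). NOG had 1.80 and 1.45 CPM against 3.31 and 2.99 CPM (-0.95 ± 0.229, FDR 1.60e-04). Both BMP antagonists were thus rare transcripts whose groups did not overlap, in opposite directions. LTBP3, which helps to secrete and store TGF-beta, had 338 and 314 CPM against 186 and 189 CPM, a 1.74-fold difference (0.80 ± 0.0348, FDR 7.28e-91). The other LTBP genes diverged, as LTBP1 rose by 0.13 while LTBP2 and LTBP4 fell by 0.38 and 0.32 on the log2 scale. FST had 77.0 and 73.6 CPM against 55.8 and 55.6 CPM (0.43 ± 0.0508, FDR 3.20e-15), and GREM1 1594 and 1623 CPM against 1241 and 1251 CPM (0.37, FDR 7.66e-28). Both were higher in each PC library than in each NC library. BMP1 had 219 and 216 CPM against 290 and 291 CPM (-0.41 ± 0.0319, FDR 3.50e-28). FSTL1, FSTL3 and CHRD did not pass the test.

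Among the 8 SMAD genes SMAD3 stood out. It had 260 and 277 CPM with serum and 119 and 116 CPM without, 2.28-fold higher (1.19 ± 0.0369, FDR 6.65e-188). The other receptor-regulated SMADs and SMAD4 did not rise, since SMAD1, SMAD2 and SMAD4 fell by 0.22, 0.19 and 0.15 on the log2 scale and SMAD5 and SMAD9 were not called. The inhibitory SMAD6, whose promoter is printed above, had 15.0 and 16.8 CPM against 12.2 and 12.7 CPM (0.35 ± 0.0816, FDR 1.18e-04), and SMAD7 rose by 0.17 (FDR 0.0186). The SMAD7 call was lost without PC replicate 2 or either NC library (FDR 0.0585 to 0.111), and the calls of SMAD1 and SMAD4 without NC replicate 2 (FDR 0.0565 and 0.0739).

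Of 6 inhibitors, SMURF2 rose and PMEPA1 and SKI fell. SMURF2, a ubiquitin ligase acting on SMADs and receptors, had 189 and 194 CPM against 128 and 125 CPM (0.60 ± 0.0359, FDR 6.44e-51), whereas its relative SMURF1 overlapped (-0.03). PMEPA1, which sequesters receptor-regulated SMADs, had 38.4 and 37.6 CPM against 52.2 and 50.1 CPM (-0.43 ± 0.0517, FDR 2.06e-14). SKI, a corepressor of SMADs, fell by 0.27 on the log2 scale. SKIL and BAMBI were not called.

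Of the 5 members listed as target genes, namely the ID genes and TGFBI, 3 rose with serum. ID1 had 21.0 and 19.7 CPM against 10.2 and 9.45 CPM, 2.08-fold higher (1.05 ± 0.107, FDR 4.13e-21). ID3 had 69.4 and 62.7 CPM against 37.0 and 37.3 CPM, 1.78-fold higher (0.83 ± 0.0554, FDR 9.25e-46). Both encode inhibitors of DNA binding that BMPs induce, and their PC libraries lay well above NC. TGFBI had 1084 and 1038 CPM against 564 and 560 CPM, 1.89-fold higher (0.92 ± 0.0289, FDR 2.80e-146). ID2 had 5.63 and 4.39 CPM against 3.82 and 4.25 CPM (0.32 ± 0.157, FDR 0.102), and ID4, at 0.688 and 0.569 CPM against 0.671 and 0.880 CPM, overlapped (-0.30, FDR 0.561).

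**Figure D3:**
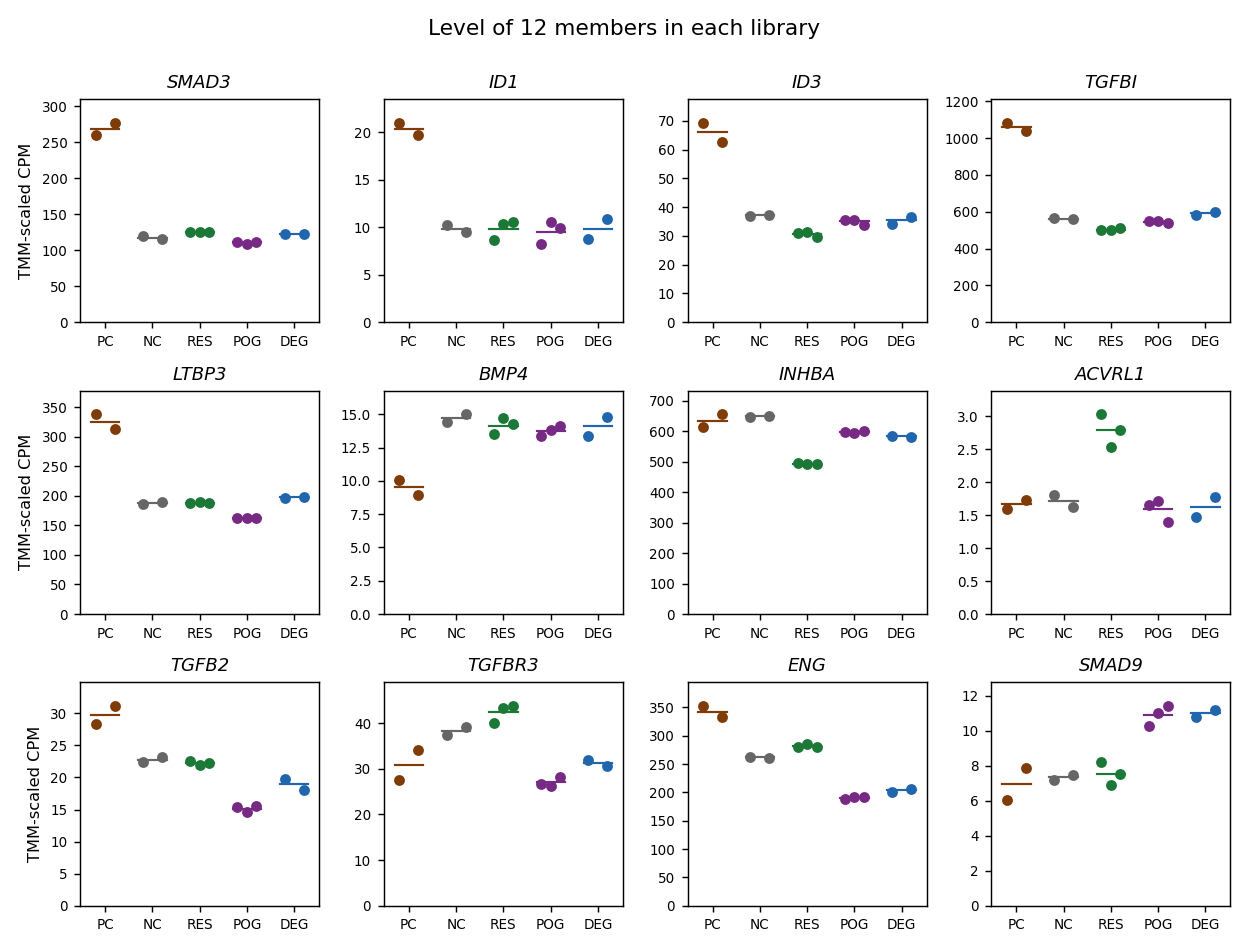
Level of 12 members in each library (TMM-scaled CPM, each y axis from 0); points are libraries and short lines group means. PC stands above the other groups for SMAD3, ID1, ID3, TGFBI and LTBP3, RES stands apart for INHBA and ACVRL1, and POG and DEG for ENG and SMAD9, while for TGFBR3 both lie below NC and RES but not apart from PC.

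Resveratrol was compared with NC next. INHBA and NOG were lower and the receptor ACVRL1 higher, and these were the called changes over 0.3 on the log2 scale. In all, 17 of 51 members (33.3%) were called, against 11.2% of all genes, with 5 higher (4.94% of all genes) and 12 lower (6.21%). With plain library totals in place of TMM the split was 7 higher and 9 lower. The median log2 fold change was -0.03 over the members and 0.00 over all genes. The number of calls fell to 10 without NC replicate 1 and to 6 without NC replicate 2.

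INHBA was the one of the 8 tested ligands among the members that was called with resveratrol. It had 495, 491 and 492 CPM in RES and 648 and 649 CPM in NC (-0.40 ± 0.0268, FDR 4.83e-31) and no RES library reached NC. The other tested ligands were not called, TGFB1 with 391, 409 and 399 CPM (0.01, FDR 0.937), TGFB2 with 22.5, 22.0 and 22.3 CPM (-0.03, FDR 0.843), BMP4 with 13.5, 14.7 and 14.3 CPM (-0.06, FDR 0.744) and BMP2 with 0.0673, 0.268 and 0.179 CPM (FDR 0.990). Among receptors, ACVRL1 had 3.03, 2.53 and 2.80 CPM against 1.81 and 1.63 CPM, 1.62-fold higher (0.69 ± 0.189, FDR 0.00333). No RES library overlapped NC, but the call was lost without NC replicate 2 (FDR 0.113). Of the endothelial markers PECAM1 was not called (-0.11, FDR 0.823), and CDH5, below the filter, had 4, 5 and 1 reads in RES and none in NC. Of the 14 markers of other cell types 10 were tested and 1 called, where 11.2% of all genes were called. This was DES, a muscle gene, higher in RES (0.852, 1.18 and 1.01 CPM against 0.568 and 0.478 CPM, FDR 0.0462). The list summed to 19.6 to 20.5 CPM in RES and 16.5 to 17.7 CPM in NC, and its part in the result was not tested. ENG rose by 0.10 (280, 285 and 280 CPM against 263 and 261 CPM, FDR 0.0299) and lost its call when any 1 of the 5 libraries was left out (FDR 0.0680 to 0.212). ACVR1 and ACVR2B fell by 0.17 and 0.20 on the log2 scale. Neither kept its call without NC replicate 2 (FDR 0.282 and 0.153), and ACVR2B lost it also without NC replicate 1, RES replicate 2 or RES replicate 3 (FDR 0.210, 0.0707 and 0.113). The other 8 receptors were not called.

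Extracellular genes were called in 6 of 12 cases with resveratrol, each of them lower. NOG had 1.48, 2.37 and 2.42 CPM against 3.31 and 2.99 CPM (-0.59 ± 0.202, FDR 0.0346), a fall below both NC libraries that lost its call without either NC library or without RES replicate 1 (FDR 0.120 to 0.299) and with DESeq2 (FDR 0.0724). LTBP1 had 240, 238 and 240 CPM against 275 and 282 CPM (-0.22, FDR 5.58e-09), and LTBP4 413, 416 and 427 CPM against 468 and 475 CPM (-0.17, FDR 5.77e-06). These 2 matrix storage genes did not overlap NC. GREM1, BMP1 and LTBP2 fell by 0.14, 0.13 and 0.12 on the log2 scale. Without NC replicate 2, BMP1 and LTBP2 were no longer called (FDR 0.0733 and 0.402). BMP1 was not called without NC replicate 1 either (FDR 0.0519), nor LTBP2 without RES replicate 1 or 2 (FDR 0.0905 and 0.0885).

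The intracellular genes moved little with resveratrol. SMAD6 rose by 0.23 (14.6, 14.1 and 15.1 CPM against 12.2 and 12.7 CPM, FDR 0.0301), and SKIL, a corepressor of SMADs, and SMURF2 rose by 0.17 and 0.13, while SMAD2 fell by 0.14 on the log2 scale. None of these 4 calls held without NC replicate 2 (FDR 0.113 for SMAD6, 0.0948 for SKIL, 0.155 for SMURF2 and 0.185 for SMAD2). Some were also lost without another library, SMAD6 without NC replicate 1, RES replicate 1 or RES replicate 3 (FDR 0.0723 to 0.290), SKIL without NC replicate 1 or RES replicate 2 (FDR 0.111 and 0.0512), SMURF2 without NC replicate 1 or RES replicate 3 (FDR 0.0516 and 0.0562) and SMAD2 without RES replicate 3 (FDR 0.0558). Of the target genes, ID3 had 30.9, 31.5 and 29.5 CPM against 37.0 and 37.3 CPM (-0.28 ± 0.0536, FDR 3.30e-05) and TGFBI 500, 499 and 511 CPM against 564 and 560 CPM (-0.16, FDR 3.86e-05). Both lay below NC in each RES library. ID1 (8.68, 10.3 and 10.5 CPM, FDR 1.00), ID2 (4.55, 4.22 and 3.39 CPM, FDR 1.00) and ID4 (0.695, 0.738 and 0.449 CPM, FDR 0.674) were not called.

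With POG, the ligand TGFB2, the co-receptors TGFBR3 and ENG and the antagonist NOG were lower than in NC, and SMAD9 was higher. Of the 51 members 21 (41.2%) were called, against 14.5% of all genes, with 2 higher (5.93% of all genes) and 19 lower (8.57%). The median log2 fold change was -0.14 over the members and 0.00 over all genes. TGFB2 had 15.4, 14.6 and 15.5 CPM in POG and 22.4 and 23.2 CPM in NC (-0.59 ± 0.0647, FDR 1.80e-16), without overlap. INHBA fell by 0.12 on the log2 scale (596, 594 and 601 CPM against 648 and 649 CPM, FDR 0.00349), a call lost without NC replicate 1 (FDR 0.0591) or NC replicate 2 (FDR 0.0803). TGFB1 (376, 372 and 387 CPM, FDR 0.186), BMP4 (13.4, 13.8 and 14.1 CPM, FDR 0.466) and BMP2 (0.333, 0.204 and 0.0215 CPM, FDR 1.00) were not called.

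Receptors were called in 5 of 12 cases with POG, all lower. TGFBR3 had 26.7, 26.2 and 28.3 CPM against 37.3 and 39.2 CPM (-0.50 ± 0.0654, FDR 4.84e-12), and ENG 189, 192 and 192 CPM against 263 and 261 CPM (-0.45 ± 0.0300, FDR 3.64e-37). These co-receptors present TGF-beta family ligands to the signaling receptors, and neither overlapped between the groups. ENG is also strongly expressed in endothelium. The endothelial marker PECAM1 had 1.35, 1.22 and 1.08 CPM in POG and 2.25 and 2.34 CPM in NC (-0.91, FDR 1.36e-04). CDH5, the other endothelial marker, had 16 reads in all libraries together. Of the 14 markers of other cell types 10 were tested and PECAM1 was the one called with POG, where 14.5% of all genes were called. The list summed to 16.4 to 17.6 CPM in POG and 16.5 to 17.7 CPM in NC, and its part in the result was not tested. TGFBR2 had 133, 126 and 127 CPM against 151 and 154 CPM (-0.24, FDR 2.04e-08), TGFBR1 fell by 0.19 on the log2 scale and ACVR1 by 0.14. The ACVR1 call was lost without NC replicate 2 (FDR 0.409), POG replicate 1 (FDR 0.0565) or POG replicate 3 (FDR 0.144).

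Of the 12 extracellular genes, 8 fell with POG and LTBP4 rose. NOG had 2.35, 1.52 and 2.11 CPM against 3.31 and 2.99 CPM (-0.66 ± 0.202, FDR 0.0119), and its call was lost without NC replicate 1 (FDR 0.178), NC replicate 2 (FDR 0.0537) or POG replicate 2 (FDR 0.106). FST had 46.4, 41.9 and 46.4 CPM against 55.8 and 55.6 CPM (-0.31 ± 0.0480, FDR 2.56e-08). LTBP2 had 193, 200 and 193 CPM against 236 and 247 CPM (-0.30 ± 0.0340, FDR 9.75e-14). Each of these genes was lower in every POG library than in either NC library. GREM1, LTBP3, LTBP1, BMP1 and FSTL3 fell by 0.24 to 0.16 on the log2 scale, while LTBP4 was at 512, 529 and 515 CPM against 468 and 475 CPM (0.14, FDR 3.75e-04). FSTL1, CHRD and CHRDL1 were not called, CHRDL1 at 0.422, 1.11 and 0.753 CPM (-0.61, FDR 0.152).

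SMAD9, a BMP-regulated SMAD also known as SMAD8, had between 10.3 and 11.4 CPM in the 3 POG libraries and 7.18 and 7.49 CPM in NC, 1.48-fold higher (0.57 ± 0.103, FDR 1.29e-06). SMAD9 was higher in every POG library than in NC, while SMAD7 and SMAD2 fell by 0.22 and 0.14 on the log2 scale and the other 5 SMAD genes were not called. The inhibitors SKI and SMURF2 fell by 0.15 and 0.14. Without NC replicate 1 the calls of SMAD7 and SMURF2 were lost (FDR 0.0637 and 0.116), and that of SMAD2 without NC replicate 2 or POG replicate 3 (FDR 0.177 and 0.0622). None of the 5 target genes was called by edgeR's exact test, its quasi-likelihood test or DESeq2, and 0 had an unadjusted p under 0.05. With 14.5% of all genes called, a count of 0 among 5 is near that share. ID1 had 8.19, 10.5 and 9.90 CPM (FDR 0.881), ID2 3.02, 3.76 and 3.36 CPM (FDR 0.293), ID3 35.6, 35.7 and 33.8 CPM (FDR 0.353), and ID4 0.444, 0.839 and 0.516 CPM (FDR 0.575). TGFBI had 549, 550 and 540 CPM.

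With DEG, SMAD9 was higher and ENG, TGFBR3, FST and TGFB2 were lower than in NC. Of the 51 members 17 (33.3%) were called, against 9.63% of all genes, with 1 higher (3.52% of all genes) and 16 lower (6.11%). The median log2 fold change was -0.10 over the members and 0.00 over all genes. The count fell to 9 without NC replicate 2 and to 11 without either DEG library. SMAD9 had 10.8 and 11.2 CPM against 7.18 and 7.49 CPM (0.59 ± 0.113, FDR 1.02e-05), without overlap. ENG had 201 and 206 CPM against 263 and 261 CPM (-0.36 ± 0.0333, FDR 3.55e-19). Here too PECAM1 was lower, at 1.47 and 1.27 CPM (-0.74, FDR 0.0149), and its part in the result was not tested. ACVR2A, a type II activin receptor, had 5.48 and 6.23 CPM against 7.26 and 8.42 CPM (-0.42 ± 0.133, FDR 0.0207). The ACVR2A call was lost without NC replicate 2 (FDR 0.338) or DEG replicate 1 (FDR 0.317) and with DESeq2 (FDR 0.0515).

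TGFBR3 had 31.9 and 30.6 CPM with DEG against 37.3 and 39.2 CPM (-0.29 ± 0.0721, FDR 0.00171), and TGFB2 19.8 and 18.1 CPM against 22.4 and 23.2 CPM (-0.26 ± 0.0707, FDR 0.00553). Both lay below NC in each library, yet both calls were lost without NC replicate 2 (exact test FDR 0.0868 for TGFBR3 and 0.114 for TGFB2) or DEG replicate 2 (FDR 0.0735 and 0.215). FST had 45.8 CPM in both DEG libraries (-0.28, FDR 1.64e-05), LTBP2 203 and 204 CPM (-0.25, FDR 2.78e-07) and INHBA 585 and 581 CPM (-0.15, FDR 6.25e-04). TGFBR2, GREM1 and LTBP1 fell by 0.21, 0.19 and 0.18 on the log2 scale and SKI by 0.15. Smaller falls of BMPR1A, PMEPA1, TGFBR1, SMURF2 and BMP1, from 0.17 to 0.12 on the log2 scale, did not hold without NC replicate 2 (FDR 0.341, 0.0844, 0.160, 0.0952 and 0.149) nor without NC replicate 1 (FDR 0.0653, 0.343, 0.106, 0.253 and 0.113). Without DEG replicate 1 none of these 5 was called (FDR 0.163 to 0.363), and without DEG replicate 2 only BMP1 was. With all libraries kept, BMPR1A and PMEPA1 also lost the call with the quasi-likelihood test (FDR 0.0506 and 0.0535) and DESeq2 (FDR 0.0591 and 0.0632). They, SMURF2 and BMP1 lost it as well with plain library totals (exact test FDR 0.0503 to 0.0769) and without the filter (FDR 0.0739 to 0.0978). None of the 5 target genes was called by the exact test, the quasi-likelihood test or DESeq2 (1, TGFBI, had an unadjusted p under 0.05). With 9.63% of all genes called, a count of 0 among 5 is near that share. ID1 had 8.76 and 10.9 CPM (FDR 1.00), ID2 3.51 and 3.71 CPM (FDR 0.678), ID3 34.3 and 36.5 CPM (FDR 0.593), ID4 0.697 and 0.662 CPM (FDR 0.867) and TGFBI 585 and 600 CPM. TGFB1 (377 and 374 CPM, FDR 0.192), BMP4 (13.4 and 14.8 CPM, FDR 0.759) and BMP2 (0.310 and 0.178 CPM, FDR 0.915) were not called either.

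The 11 tested members not called in any comparison with NC were the ligands BMP2, TGFB3 and INHBB, the receptor BMPR1B, CHRD and FSTL1, SMAD5, the inhibitors BAMBI and SMURF1, and ID2 and ID4. For rare genes among them the intervals were wide, as for BMP2 with POG (-1.57 to 1.47). For abundant ones they were narrow, since FSTL1 had 1616 and 1672 CPM in NC and between 1573 and 1718 CPM in the other groups.

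The compounds were given at the same 1 µg/mL and were compared directly in 3 pairs, with the FDR adjusted over genes within a pair and not over the pairs. Resveratrol is a stilbene and POG a glycosylated anthocyanidin. Between POG and RES 28 of 51 members (54.9%) differed, against 27.9% of all genes, with 7 higher in POG (13.7% of all genes) and 21 lower (14.1%). ACVRL1 had 1.66, 1.72 and 1.40 CPM in POG and 3.03, 2.53 and 2.80 CPM in RES (-0.80, 95% interval -1.14 to -0.47, FDR 6.83e-06). ENG, at 189 to 192 CPM against 280 to 285 CPM, differed by -0.56 (-0.61 to -0.50, FDR 1.75e-70), and TGFBR3, at 26.2 to 28.3 against 40.1 to 43.7 CPM, by -0.65 (FDR 3.46e-26). All 3 receptors were lower in every POG library than in any RES library. So was the endothelial marker PECAM1, at 1.08 to 1.35 CPM against 1.79 to 2.47 CPM (-0.80, FDR 8.80e-05), the one marker of other cell types called, and its part in the result was not tested. TGFB2 differed by -0.55 (14.6 to 15.5 CPM against 22.0 to 22.5 CPM, FDR 4.14e-19), whereas SMAD9 was higher in POG by 0.53 (10.3 to 11.4 CPM against 6.88 to 8.19 CPM, FDR 4.66e-08). CHRDL1 differed by -0.90 (0.422 to 1.11 CPM against 1.23 to 1.70 CPM, FDR 0.00249), a call lost without POG replicate 1 (FDR 0.0713). INHBA was higher in POG by 0.28 (FDR 2.82e-19), ID3 by 0.19 (FDR 7.94e-04) and LTBP4 by 0.31 (FDR 5.44e-25).

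Between DEG and RES 23 members (45.1%) differed, against 21.2% of all genes, with 7 higher in DEG (10.3% of all genes) and 16 lower (10.8%). ACVRL1 had 1.47 and 1.78 CPM in DEG, below each RES library (-0.77, 95% interval -1.17 to -0.39, FDR 4.22e-04), a call lost without DEG replicate 1 (FDR 0.0520). SMAD9 differed by 0.55 (FDR 1.20e-06), ENG by -0.47 (FDR 2.49e-38) and TGFBR3 by -0.44 (FDR 1.47e-09). Of the markers of other cell types PECAM1 (1.47 and 1.27 CPM against 1.79 to 2.47 CPM, FDR 0.0152) and ACP5 (0.465 and 0.636 CPM against 0.782 to 1.55 CPM, FDR 0.00372), an osteoclast gene, were called lower in DEG, and their part in the result was not tested. SMAD6, with 10.8 and 10.7 CPM against 14.1 to 15.1 CPM, differed by -0.44 (FDR 8.60e-07), and ACVR2B, with 32.1 and 30.3 CPM against 24.1 to 25.5 CPM, by 0.33 (FDR 9.64e-06). The libraries of DEG and RES did not overlap for these pathway genes, which had been picked by FDR and size of change. Without either DEG library 15 members were called. This comparison and that of POG with RES share the RES libraries.

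Between DEG and POG 4 members (7.84%) differed, against 1.05% of all genes, all of them higher in DEG (0.550% of all genes, with 0.497% lower). LTBP3 had 197 and 198 CPM in DEG and 162, 162 and 163 CPM in POG (0.28, 95% interval 0.22 to 0.35, FDR 2.66e-11). TGFB2 had 19.8 and 18.1 CPM against 15.4, 14.6 and 15.5 CPM (0.32, 0.19 to 0.46, FDR 0.00120), a call lost without DEG replicate 1 (FDR 0.259). Neither gene overlapped between the groups. SMAD3 and TGFBI differed by 0.14 and 0.12 (FDR 0.0368 and 0.0323). Without DEG replicate 1 the count of called members was 1, and without any other single library 2. SMAD3 and TGFBI were not called when any 1 of the 5 libraries was left out (FDR 0.0907 to 0.394 for SMAD3 and 0.115 to 0.530 for TGFBI). The 34 members of at least 10 CPM that were not called had 95% intervals that lay within -0.20 to 0.37 on the log2 scale, SMAD9 among them with -0.18 to 0.22, which leaves differences of that size open to either side.

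**Figure D4:**
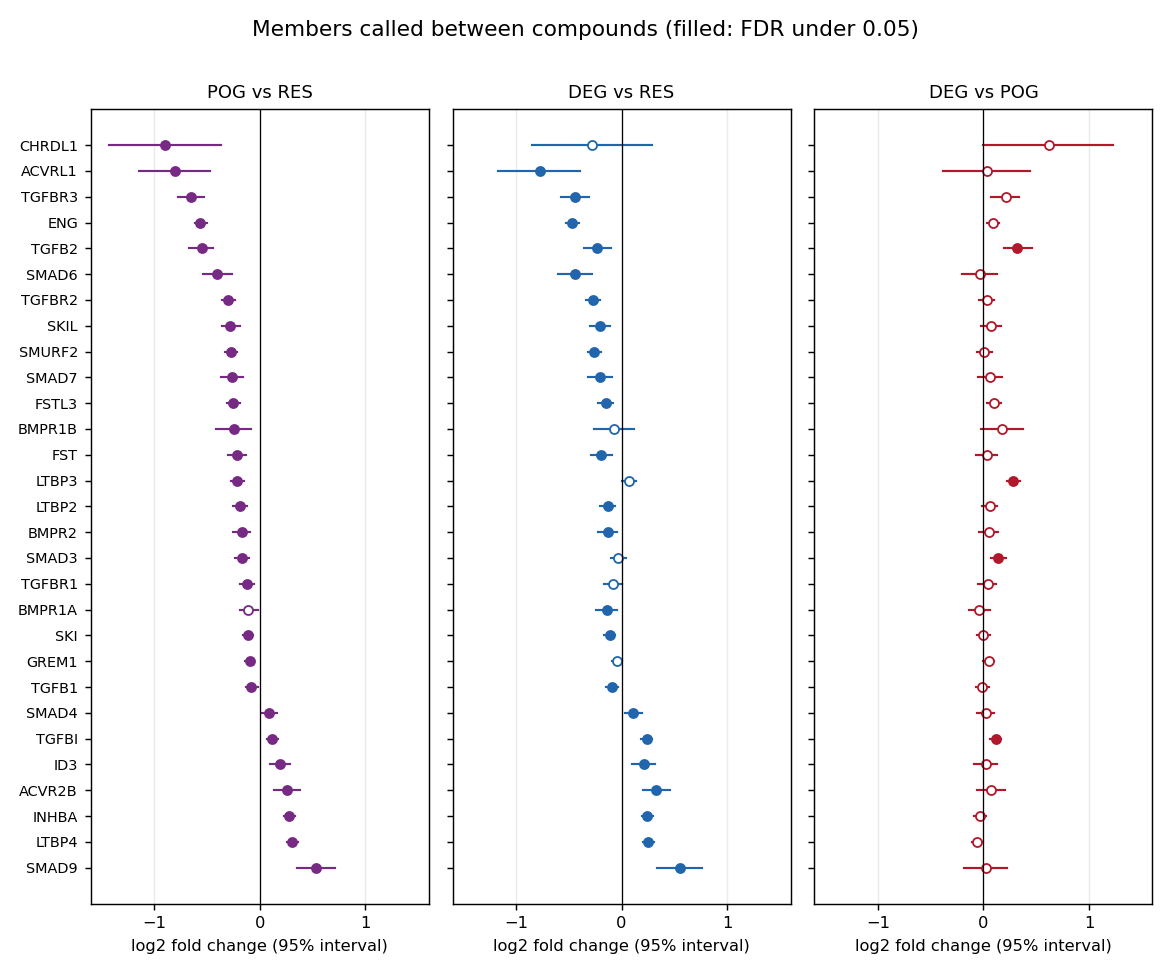
Differences between compounds (log2 fold change, x axis) for the members called in at least 1 of the 3 pairs; points are estimates, lines 95% intervals and filled points passed FDR under 0.05. ACVRL1, TGFBR3, ENG and TGFB2 lie left of 0 and SMAD9 right of 0 in both comparisons with RES, while DEG against POG has 4 filled points.

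Other genes of the pathway, from lists of 76 genes of which 65 passed the filter, were read in the same fit. With serum 36 (55.4%) were called, against 42.4% of all genes, with 22 higher (21.4% of all genes) and 14 lower (20.9%). Of 18 tested TGF-beta response genes 13 (72.2%) were called and 11 of these rose, among them the actin-binding TAGLN, with 149 and 138 CPM against 43.3 and 41.1 CPM (1.77, FDR 6.99e-283). The PC libraries lay above every other library. CDKN1A and CDKN2B, cell cycle inhibitors, fell. Of 7 BMP response genes ATOH8 (1.11) and ALPL (0.70) rose, and 5 were not called. IGFBP3 and the BMP co-receptor RGMB rose by 1.64 and 1.06, and DCN (decorin, which binds TGF-beta), ACVR1C, INHA and AMH fell by 0.85, 0.74, 0.59 and 0.56 on the log2 scale.

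With the compounds the other pathway genes were called in 14 cases for RES (21.5%, against 11.2% of all genes), 21 for POG (32.3%, against 14.5%) and 10 for DEG (15.4%, against 9.63%). Of these, 10 were lower with RES, 20 with POG and 9 with DEG, where 6.21%, 8.57% and 6.11% of all genes were lower, and the other 4, 1 and 1 were higher. With plain library totals the split was 6 and 8 for RES and 3 and 17 for POG. THBS1 (thrombospondin 1, an activator of latent TGF-beta) had 189 and 194 CPM in NC, 142 to 150 CPM in RES (-0.38, FDR 8.19e-18), 98.1 to 102 CPM in POG (-0.94, FDR 1.02e-110) and 116 to 118 CPM in DEG (-0.71, FDR 3.78e-50). No library of a compound reached the NC level. With RES, KLF10, a TGF-beta inducible factor, NEDD4L and TWSG1 rose by 0.35, 0.18 and 0.14, while DCN (-0.61), FN1 (-0.27), AMH (-0.25) and BGN (-0.24) fell. Of 18 TGF-beta response genes 3 fell with RES, against 6.21% of all genes, and 1 rose. With POG the falls included INHBE (-1.15, at 0.476 to 0.861 CPM), IGFBP3 (-0.69), CCN2 (-0.42) and the matrix protein POSTN (-0.35), and 9 of 18 TGF-beta response genes fell (8.57% of all genes did) while LOX, a collagen cross-linking enzyme, rose (0.16). With DEG, INHBE (-1.18), DCN (-0.55), GDF11 (-0.42) and SNAI2 (-0.33) fell and LOX rose (0.25), and 4 of 18 response genes fell, against 6.11% of all genes. None of the 7 tested BMP response genes was called with a compound by edgeR's exact test, its quasi-likelihood test or DESeq2, and at an unadjusted p under 0.05 there were 2 with RES, 3 with POG and 1 with DEG. With 9.63% to 14.5% of all genes called, a count of 0 among 7 is near that share. Most of these genes were also rare. MSX1, MSX2, DLX5, HEY1 and ATOH8 averaged 0.268 to 1.31 CPM in NC, against 4.07 CPM for ALPL and 47.1 CPM for RUNX2.

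**Figure D5:**
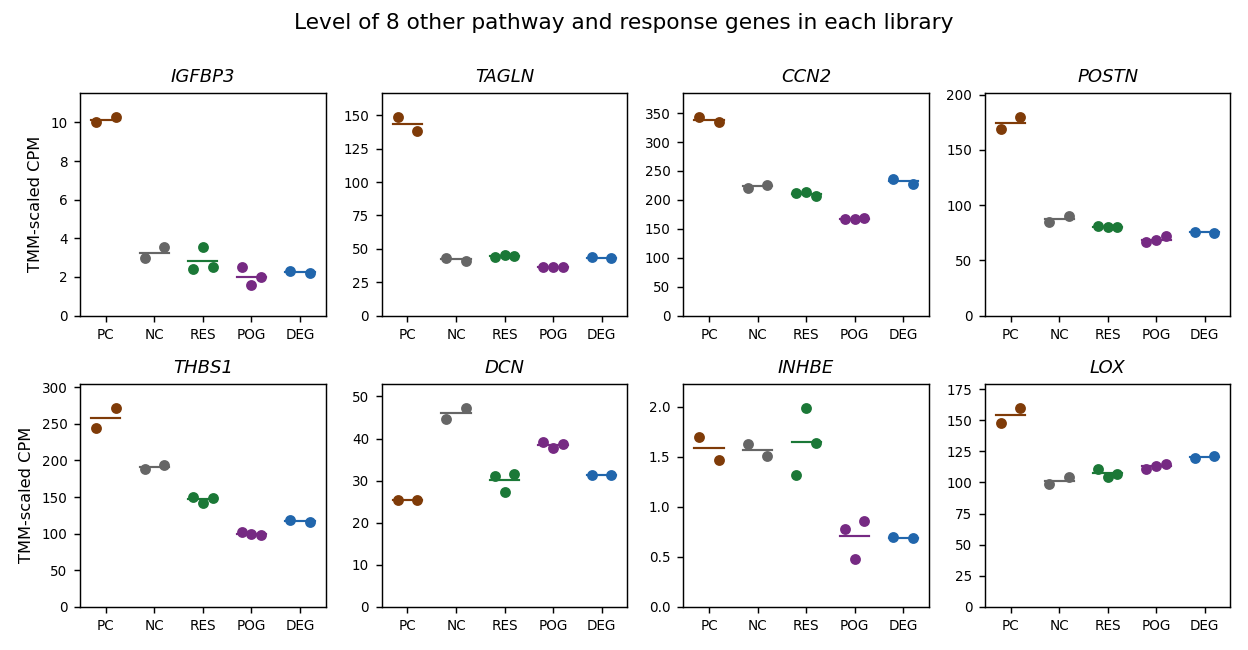
Level of 8 other pathway and response genes in each library (TMM-scaled CPM, each y axis from 0); points are libraries and short lines group means. TAGLN is at 149 and 138 CPM in PC and at 36.6 to 45.4 CPM in the serum-free groups, and THBS1 is lowest in POG.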

How the data were processed

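The authors deposited raw read counts per gene for 12 libraries. Per the labels and the study's methods, polyA-selected RNA was sequenced as read pairs, aligned to hg38 with STAR (BWA MEM is named as well) and counted with featureCounts; versions, annotation release and strand setting are not given in the sources used here, so reads of genes that overlap on opposite strands cannot be told apart. DEG replicate 3 was not analysed here. Replicate numbers follow accession order. Symbols were matched by Ensembl identifier (43214 of 43836 genes).

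The counts were filtered with filterByExpr by group, scaled by TMM and tested with the exact test of edgeR 4.0.16 in R 4.3.3, which the study's methods name, with dispersions from all 12 libraries (common biological coefficient of variation 3.21%) and Benjamini-Hochberg adjustment over 17092 genes. Standard errors and 95% intervals came from edgeR's quasi-likelihood fit. TPM and coordinates used GENCODE v44 exons, and promoters the RefSeq table. On simulated counts of 17092 genes, 50 genes each were changed 1.25-, 1.5-, 2- and 0.5-fold and the others left unchanged. For POG against NC, 62.0%, 66.0%, 82.0% and 84.0% of these were recovered, with 15 unchanged genes called. For PC against NC, with 2 libraries a group, the shares were 44.0%, 72.0%, 90.0% and 78.0%, with 20 unchanged genes called. The false calls are to be set beside the few recovered genes. Many more genes were called in the data, so they give no rate of false calls there.

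Members given with every library were, against NC, called members that reached a mean of 1 CPM in 1 of the groups and a log2 fold change of 0.3 in size, up to a fixed number by size, the 6 largest between compounds, and the ID genes, TGFB1, TGFB2, BMP2, BMP4 and INHBA; smaller called changes, CDKN1A, CDKN2B and ALPL were added after their values were seen. Of the other pathway genes up to 5 each way were named. Some genes that this rule names are not reported here. Members and lists were chosen with earlier results of these data known. The alternatives were DESeq2 1.42.0, the quasi-likelihood test of edgeR, size factors from DESeq2, plain totals, no filter, dispersions from the groups compared, a log2 fold limit of 0.3 and leaving out each library.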

Additional observations from a re-analysis of the deposited data

How the results depend on the processing

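A count of called members is within 1.5 times the reported one unless listed here. With a log2 fold limit of 0.3 the members called against NC were 23 (PC), 3 (RES), 7 (POG) and 3 (DEG), and between compounds 8 (POG against RES), 6 (DEG against RES) and 1 (DEG against POG), while the other pathway genes were 4 (RES), 6 (POG) and 5 (DEG). With dispersions from the groups compared, 16 other pathway genes were called with DEG and 10 members between DEG and POG. Without the filter 2 members were called between DEG and POG. Leaving out 1 library gave 6 to 13 members for RES, 9 to 12 for DEG, 15 to 21 for DEG against RES, 1 to 2 for DEG against POG and 13 to 20 other pathway genes for POG (13 without NC replicate 2). The cause of these changes was not tested, beyond the fewer libraries and the fold limit themselves. For the alternative settings, here and in the sections above, the share of all genes called is not given. These counts therefore do not show whether the members stayed above that share. No result reversed. Calls held under every setting other than the fold limit for 25 of 35 members with PC, 6 of 17 with RES, 15 of 21 with POG, 9 of 17 with DEG, 23 of 28 between POG and RES, 12 of 23 between DEG and RES and 1 of 4 between DEG and POG (LTBP3). No paired analysis was possible because the labels carry no replicate numbers. Small changes of rare members such as BMP2, INHBB and ID4 were not detectable at this depth, and a group of 2 or 3 libraries of 1 cell line limits every comparison.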
